A study of Homo sapiens with 6 samples.

Results

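A set of 8 genes that carry, store, convert or bind retinol and its products was examined in Hep3B cells: RBP4, TTR, STRA6, LRAT, RDH10, DHRS3, CRABP1 and CRABP2. They were picked by name from the table of read counts, in which 7 of the 8 were found among 16720 named rows, and CRABP1 was not analysed here. Of the 7 genes, 6 passed the filter on low counts, as did 12839 genes in all, and LRAT did not. The genes were proposed with the difference between the groups already known, so their differences are given as a description. Where calls of these genes in the fit over all genes are given, nothing is read from them.

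Hep3B, an established line, comes from a human hepatocellular carcinoma. The data are 3 RNA-seq libraries labelled sgControl, with wild-type RFX6, and 3 labelled sgRFX6, in which RFX6, a winged-helix transcription factor, had been knocked out with a guide RNA. Per the study's methods, guides and Cas9 were delivered on the lentiCRISPRv2 vector, infected cells were selected with puromycin, and single-cell-derived clones were expanded. How many clones stand behind the 3 sgRFX6 libraries is not given in the sources used here, so a difference between clones and an effect of the knockout cannot be told apart. The columns taken as sgControl are headed cas and name no guide, and those taken as sgRFX6 are headed sg3. The libraries are numbered 1 to 3 in each group. The labels do not say whether they came from separate cultures, and the spread between them may be technical.

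Retinol, or vitamin A alcohol, leaves the liver bound to the plasma carrier RBP4, which travels in a complex with transthyretin, the product of TTR. The membrane receptor STRA6 takes retinol up from RBP4, and LRAT converts it to retinyl esters for storage. Inside the cell RDH10 oxidises retinol to retinaldehyde, DHRS3 reduces retinaldehyde back to retinol, and the binding proteins CRABP1 and CRABP2 carry retinoic acid, the form that acts on the nuclear receptors RAR and RXR. Hepatocytes are known as the main source of plasma RBP4 and transthyretin, and hepatic stellate cells as the main store of retinyl esters.

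The libraries held between 16730386 and 25070793 counts, and values are given as CPM, the usual depth-scaled form of counts, with edgeR's TMM factors. At these depths 3 counts, taken as the floor, corresponded to 0.121 to 0.188 CPM. The floor covers counting error only. RFX6 itself had 5.64, 5.83 and 7.34 CPM in sgControl and 3.43, 3.71 and 3.5 CPM in sgRFX6, with no overlap. Its adjusted p-value was 0.142 in edgeR's quasi-likelihood test, so its transcript was not shown to differ by that test. Of 14 alternative fits, 2 called it lower. These were limma-voom with sample quality weights (adjusted p = 0.00274) and edgeR with a correction for transcript GC content (adjusted p = 0.0475). The study's methods state that the knockout was checked by qRT-PCR and western blotting. The liver transcription factor genes HNF4A and FOXA2 were well above the floor in every library, with HNF4A between 109 and 161 CPM. Among genes of secreted liver proteins, ALB, which encodes albumin, lay between 12.9 and 32.1 CPM, and AFP, which encodes alpha-fetoprotein, between 1.58 and 17.1 CPM. Of the 13 liver markers, 12 were above the floor in every library. Libraries of a group also differed along transcript GC content. The Spearman correlation of a library's deviation with GC, across 12001 genes, ran from -0.86 for sgRFX6 library 3 to 0.74 for sgRFX6 library 2, each against the other libraries of its group.

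The promoter windows of the genes that the comparison turned on are shown first, so that their composition can be read beside the values. Each window runs from 250 bases before to 50 bases after the annotated start, 5′ to 3′ on the strand of the gene, from RefSeq on GRCh38.p14. RBP4 (chr10:93601695-93601994, reverse strand) and STRA6 (chr15:74212210-74212509, reverse strand) were the genes with lower levels in sgRFX6. CRABP2 (chr1:156705735-156706034, reverse strand), like STRA6, stood high in sgControl library 2. Capitals mark the half-site AGGTCA of retinoic acid receptors, here in its reverse complement TGACCT.
RBP4: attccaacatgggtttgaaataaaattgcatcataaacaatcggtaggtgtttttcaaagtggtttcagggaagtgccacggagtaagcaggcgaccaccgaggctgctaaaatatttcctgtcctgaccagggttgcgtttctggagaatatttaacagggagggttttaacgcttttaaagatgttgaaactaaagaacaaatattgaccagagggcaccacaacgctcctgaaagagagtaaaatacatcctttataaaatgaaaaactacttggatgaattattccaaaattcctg
STRA6: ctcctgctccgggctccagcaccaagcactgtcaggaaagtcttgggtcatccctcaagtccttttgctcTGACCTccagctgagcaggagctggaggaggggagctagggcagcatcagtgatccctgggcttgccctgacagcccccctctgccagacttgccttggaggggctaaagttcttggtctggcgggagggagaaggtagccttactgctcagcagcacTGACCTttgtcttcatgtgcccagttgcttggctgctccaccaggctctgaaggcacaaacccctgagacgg
CRABP2: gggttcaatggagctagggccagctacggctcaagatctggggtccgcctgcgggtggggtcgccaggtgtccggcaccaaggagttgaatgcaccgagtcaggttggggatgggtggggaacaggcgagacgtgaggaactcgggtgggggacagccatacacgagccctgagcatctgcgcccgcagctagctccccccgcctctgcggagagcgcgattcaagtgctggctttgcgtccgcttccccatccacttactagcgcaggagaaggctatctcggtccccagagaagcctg

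The windows of these genes differed in base composition. GC content was 39.0% in RBP4, 59.7% in STRA6 and 64.0% in CRABP2, and the number of CpG pairs was 7, 3 and 20. AGGTCA was found 2 times in the STRA6 window, both on the opposite strand, at 180 and 22 bases before the start. Of 35116 windows of the same length, 13.8% held the half-site at least once and 1.38% held it 2 or more times. The half-site AGTTCA, present in 10.4% of all windows, was not found in RBP4, STRA6 or CRABP2. Nor were direct repeats of either half-site spaced by 2 or 5 bases, each present in at most 0.0114% of all windows. For RFX factors, the full X-box motif (0.49% of all windows) and its half-site GTTGCC (12.2%) were searched on both strands, and neither was found in these 3 windows. None of the motifs was found in the windows of LRAT or DHRS3. No window of TTR or RDH10 was searched. Only 1 window was searched for each gene, also where a gene has several start sites. The half-site is also part of each direct repeat of it, and the 2 matches in STRA6 do not overlap. A match or its absence describes the letters of these windows only.

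The plasma carrier gene RBP4 was lower in every sgRFX6 library than in every sgControl library. RBP4 lies on chromosome 10 of GRCh38 from 93591687 to 93601744. It was counted 483, 710 and 686 times in sgControl libraries 1, 2 and 3, which is 23.3, 28.7 and 29.6 CPM, and 254, 208 and 196 times in the sgRFX6 libraries, which is 12.6, 13.1 and 8.90 CPM. The lowest sgControl library stood well above the highest sgRFX6 library. The means were 27.2 ± 3.44 CPM and 11.5 ± 2.29 CPM (SD, n = 3 each), and the log2 fold change was -1.24 (standard error 0.24), a level 2.36-fold lower in sgRFX6. In bulk RNA, fewer cells of a type and less RNA per cell cannot be told apart. The summed level of the 13 liver markers was 479.6 to 551.7 CPM in sgControl and 371.8 to 434.5 CPM in sgRFX6. Of the 13, edgeR called AFP and AHSG higher and the fibrinogen genes FGA and FGB lower, where 3.74% of all tested genes were called. Among the 9 not called, APOB averaged 66.55 CPM in sgControl and 27.1 CPM in sgRFX6, without overlap. HNF4A averaged 151.1 and 125.5 CPM, also without overlap. Differences were positive for 6 of the 13 markers and negative for 7. The part of this shift in the level of RBP4 was not tested. Among the 50 tested genes nearest to RBP4 on its chromosome, the median difference was -0.13 in log2.

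TTR, whose protein keeps RBP4 in the circulation, was close to the limit of detection in both groups. The gene lies on chromosome 18 from 31557010 to 31599021. It was counted 7, 21 and 6 times in sgControl (0.337, 0.850 and 0.259 CPM) and 12, 14 and 12 times in sgRFX6 (0.596, 0.879 and 0.545 CPM). The groups overlapped, since sgControl library 2 had nearly the level of the highest sgRFX6 library. The log2 fold change of TTR was 0.45 with a standard error of 0.53, within the spread of the replicates, and it was 1.14 (standard error 0.48) without sgControl library 2.

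Levels per length set the carrier beside its partner. On the scale of CPM per kb of transcript, RBP4 stood above TTR in every library. The ratio of RBP4 to TTR was 50.3, 24.6 and 83.3 in sgControl and 15.4, 10.8 and 11.9 in sgRFX6. The ratio was thus lower in each sgRFX6 library, although it rests on few TTR counts.

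The receptor gene STRA6 had the widest difference of the group. It lies on chromosome 15 from 74179466 to 74212267. It was counted 725, 2813 and 802 times in sgControl, which is 34.9, 114 and 34.6 CPM, and 261, 114 and 147 times in sgRFX6, which is 13.0, 7.16 and 6.67 CPM. Each sgRFX6 value lay under the lowest sgControl value, and sgControl library 2 stood 3.29-fold above the lowest library of its own group. STRA6 averaged 61.1 ± 45.7 CPM and 8.93 ± 3.5 CPM in the sgControl and sgRFX6 libraries (SD, n = 3 each). Its log2 fold change was -2.77 (standard error 0.52), or 6.84-fold lower in sgRFX6. Without sgControl library 2 it was -1.96 (standard error 0.33), a smaller difference in the same direction. Among the 50 tested genes nearest to STRA6, the median difference was -0.08 in log2.

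RBP4 and STRA6 were the 2 members called in the fit over all genes, both lower, where 1.81% of the 12839 genes tested were called lower in sgRFX6 and 3.74% were called in either direction. They were also the 2 tested members whose groups did not overlap, where 23.1% of all tested genes did not overlap and 11.2% had every sgRFX6 library below every sgControl library. As the difference itself was known when the genes were proposed, nothing is read from these counts. The count of members called was 1 without sgControl library 2, 3 or sgRFX6 library 1 (STRA6 in each case), 1 without sgRFX6 library 3 (RBP4) and 0 without sgRFX6 library 2.

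**Figure D1:**
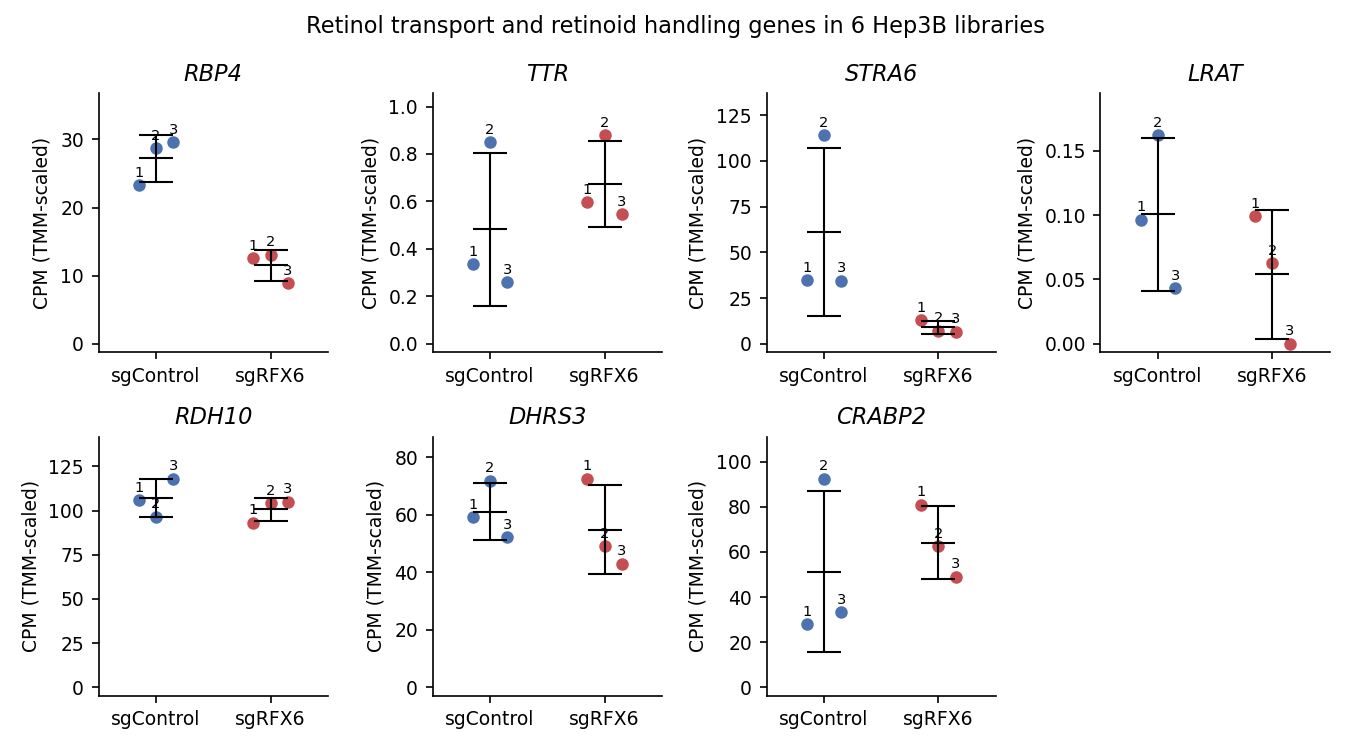
CPM (TMM-scaled) of the 7 measured genes in each library, with 1 panel per gene and a separate vertical axis in each. Points are libraries, numbered 1 to 3, and black bars are the mean ± SD of 3 libraries. The sgRFX6 points of RBP4 and STRA6 all lie below the sgControl points, and those of the other genes overlap them. Library 2 of sgControl stands high for STRA6, CRABP2 and TTR.

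The storage enzyme gene LRAT, on chromosome 4 from 154626945 to 154753118, was at the floor. It was counted 2, 4 and 1 times in sgControl and 2, 1 and 0 times in sgRFX6, so that no difference was detectable at this depth and no fold is given. LRAT is also a marker of hepatic stellate cells, and of 10 other stellate markers 4 were above the floor in every library. PDGFRB reached 0.607 CPM, DES 0.121 CPM and DCN 0.931 CPM, whereas 2 matrix genes had a mean of 10 CPM or more. These were LUM, between 16.7 and 54.7 CPM, and COL3A1, with 23.0, 27.5 and 26.5 CPM in sgControl and 0.0993, 0 and 0 CPM in sgRFX6. The 10 stellate markers together summed to between 52.3 and 61.8 CPM in sgControl and between 21.7 and 57.3 CPM in sgRFX6. Of the 6 that were tested, 3 fell in edgeR's quasi-likelihood test, the collagen genes COL1A1, COL1A2 and COL3A1, where 1.81% of all tested genes were called lower. The part of these markers in the differences of RBP4 and STRA6 was not tested.

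The enzymes on either side of retinaldehyde showed little difference. RDH10, on chromosome 8 from 73294612 to 73325281, had 106, 96.6 and 118 CPM in sgControl and 93.2, 104 and 105 CPM in sgRFX6. These values overlapped, with means of 106.7 ± 10.7 and 101 ± 6.79 CPM (SD, n = 3 each), and the log2 fold change was -0.08 (standard error 0.16). DHRS3, on chromosome 1 from 12567910 to 12617731, had 59.3, 71.9 and 52.3 CPM in sgControl and 72.6, 49.1 and 43.0 CPM in sgRFX6. The log2 fold change of DHRS3 was -0.16 (standard error 0.24), within the spread, and sgRFX6 library 1 had the highest value of all 6 libraries.

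CRABP2, which carries retinoic acid to its receptors, varied more within sgControl than between the groups. The gene lies on chromosome 1 from 156699606 to 156705816. It was counted 582, 2282 and 775 times in sgControl (28.0, 92.4 and 33.4 CPM) and 1629, 993 and 1080 times in sgRFX6 (80.9, 62.4 and 49.0 CPM). The highest value was that of sgControl library 2, and the other 2 sgControl libraries lay below all sgRFX6 libraries. The log2 fold change of CRABP2 was 0.32 (standard error 0.43) over all libraries and 1.06 (standard error 0.26) without sgControl library 2.

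STRA6 and CRABP2 both stood high in sgControl library 2, and their ratio differed between the groups. Against the mean of sgControl libraries 1 and 3, library 2 was higher by 1.70 for STRA6 and by 1.58 for CRABP2 in log2 CPM, at the percentiles 99.3 and 99.0 of all tested genes. TTR differed by 0.76 in that library, at the percentile 91.4 and on few counts. DHRS3 differed by 0.36, RBP4 by 0.13 and RDH10 by -0.21. On the scale of CPM per kb, the ratio of STRA6 to CRABP2 was 0.449, 0.445 and 0.373 in sgControl and 0.0578, 0.0414 and 0.0491 in sgRFX6. The ratio was thus nearly the same in the sgControl libraries, library 2 included, and several times lower in each sgRFX6 library. This ratio was chosen after the values were seen and is a description. The transcripts of STRA6 and CRABP2 have a GC content of 60.8% and 55.8%, and the deviation of sgControl library 2 had a Spearman correlation of 0.42 with GC content across genes. With the GC trends removed, the log2 fold change of STRA6 was -2.65 (standard error 0.42) and that of CRABP2 0.39 (standard error 0.35).

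**Figure D2:**
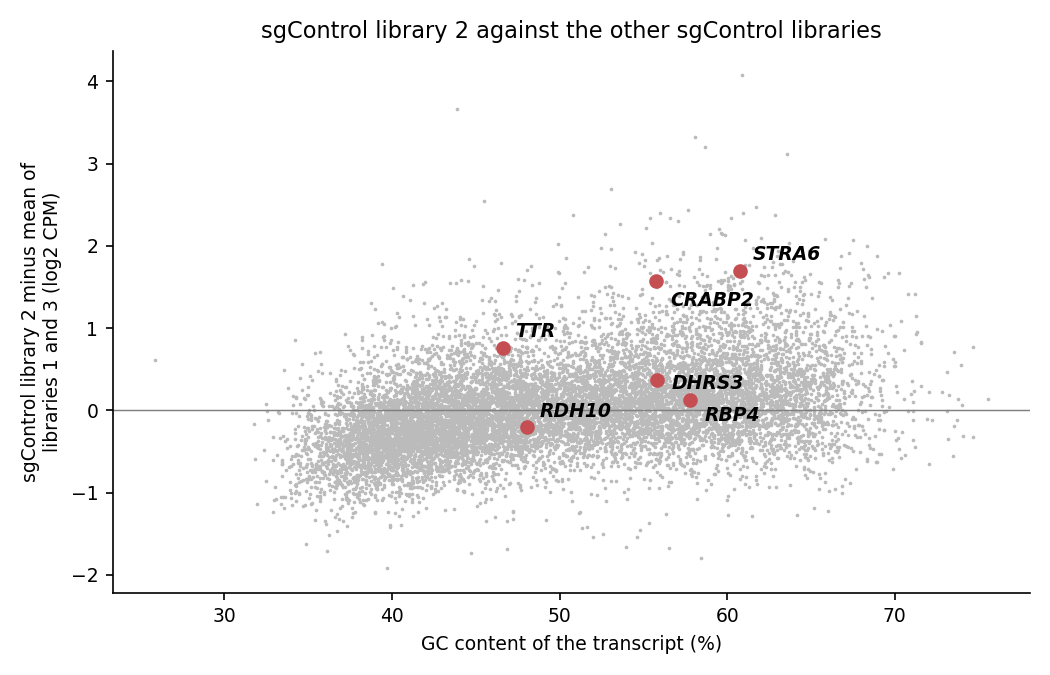
Difference in log2 CPM between sgControl library 2 and the mean of sgControl libraries 1 and 3 (vertical axis) against the GC content of the transcript in % (horizontal axis). Grey points are tested genes with a known GC content and red points the 6 tested members. STRA6 (1.70) and CRABP2 (1.58) lie at the percentiles 99.3 and 99.0 of all tested genes, and RBP4 (0.13) lies near 0.

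**Figure D3:**
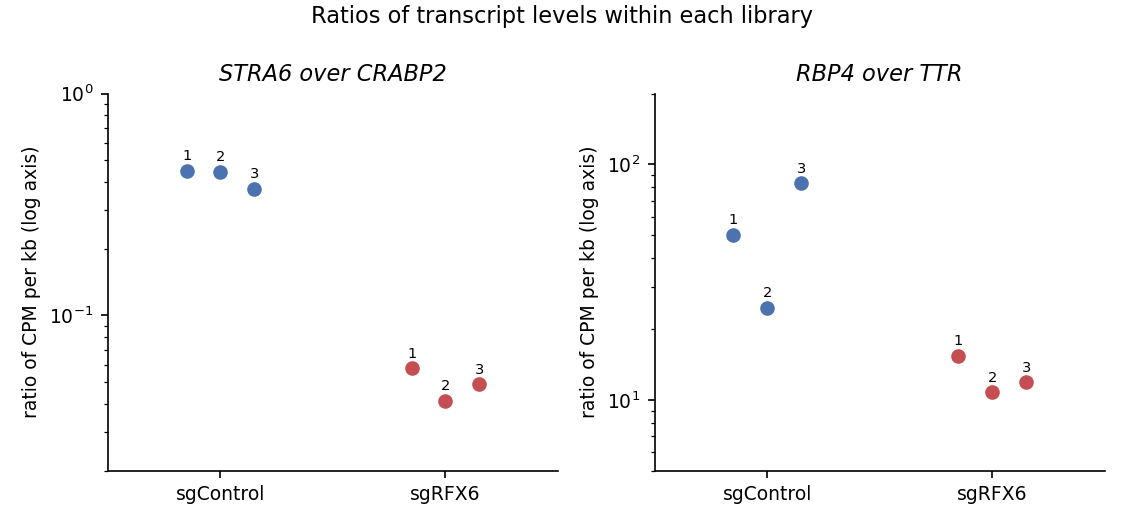
Ratio of STRA6 to CRABP2 (left) and of RBP4 to TTR (right) in each library, as CPM per kb of transcript on log axes that do not start at 0. Points are libraries, numbered 1 to 3. The left ratio lies between 0.373 and 0.449 in sgControl and between 0.0414 and 0.0578 in sgRFX6.

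**Figure D4:**
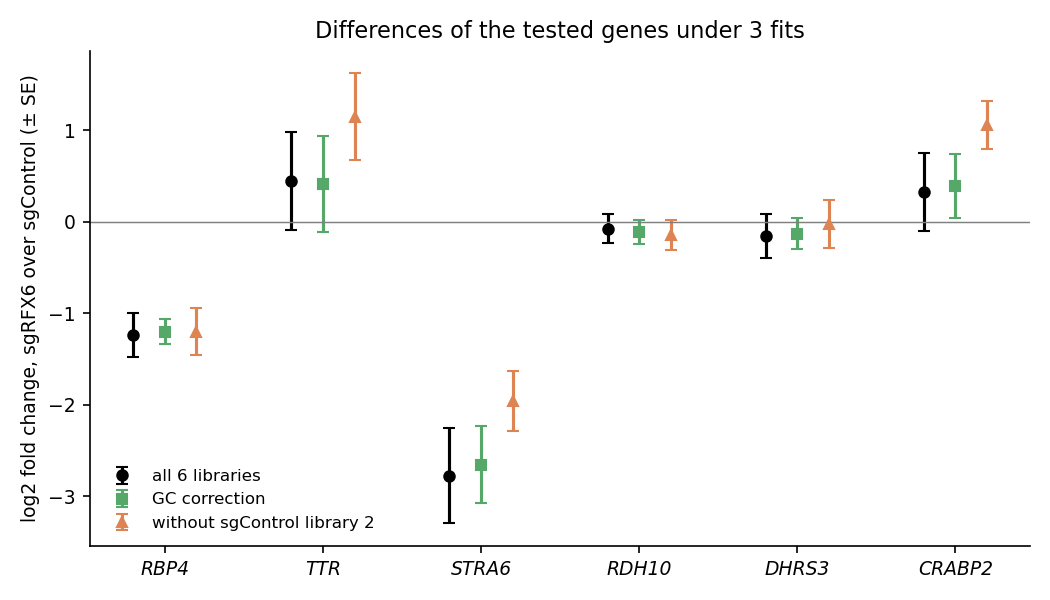
Log2 fold change of sgRFX6 over sgControl for the 6 tested members, with bars of 1 standard error, in edgeR fits of all 6 libraries (black circles), with a correction for GC content (green squares) and without sgControl library 2 (orange triangles). RBP4 (-1.24, -1.20 and -1.20) hardly moved between the fits, while STRA6 went from -2.77 to -1.96 and CRABP2 from 0.32 to 1.06 without sgControl library 2.

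Ordered by their mean level per length, the members in sgControl were CRABP2 (49.6 ± 34.5 CPM per kb), DHRS3 (35.5 ± 5.74), RDH10 (27.0 ± 2.72), STRA6 (21.4 ± 15.9), RBP4 (20.7 ± 2.62), TTR (0.504 ± 0.336) and LRAT (0.0204 ± 0.0121), each with SD and n = 3. The ranges of CRABP2 and DHRS3 overlapped, as did those of RDH10 and STRA6 and those of STRA6 and RBP4. In sgRFX6 the order was CRABP2 (62.0 ± 15.5 CPM per kb), DHRS3 (31.9 ± 9.07), RDH10 (25.6 ± 1.72), RBP4 (8.77 ± 1.74), STRA6 (3.12 ± 1.22), TTR (0.704 ± 0.188) and LRAT (0.0110 ± 0.0102), and only the ranges of DHRS3 and RDH10 overlapped between neighbours in this order. The place of STRA6 above RBP4 in the sgControl means came from library 2. The ratio of STRA6 to RBP4 per length was 0.689, 1.82 and 0.536 in sgControl and 0.471, 0.251 and 0.344 in sgRFX6, so that STRA6 lay below RBP4 in every library but sgControl library 2.

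The rest of the retinoid pathway was read from a list of 50 other genes taken by function, of which 46 were in the table and 28 were tested. Of the 28, 2 rose and 1 fell in sgRFX6 in edgeR's quasi-likelihood test over all genes, and 25 did not pass, where 1.92% of all tested genes were called higher and 1.81% lower. The median log2 fold change of the list was -0.01, beside 0.02 over all tested genes. Both genes that rose encode dehydrogenases that act on retinol. Among the 5 tested genes of that role, HSD17B6 and RDH5 went the other way, with log2 fold changes of -1.24 and -0.11. HSD17B6 had 1.06, 1.34 and 1.21 CPM in sgControl and 0.348, 0.691 and 0.499 CPM in sgRFX6. It did not pass (edgeR adjusted p = 0.151). DHRS9, on chromosome 2 from 169064789 to 169096167, had 4.43, 2.83 and 2.85 CPM in sgControl and 9.98, 11 and 12.2 CPM in sgRFX6, a rise of 1.71 in log2 with a standard error of 0.28 and an adjusted p-value of 0.0119 in edgeR. Without sgControl library 3 DHRS9 had an adjusted p-value of 0.0780 in edgeR, the highest of 14 alternatives, and the lowest was 1.1e-06. ADH1C, an alcohol dehydrogenase gene on chromosome 4 from 99336492 to 99353027, had 2, 2 and 4 counts in sgControl, near the floor. In sgRFX6 the counts were 91, 30 and 99, and edgeR gave an adjusted p-value of 0.00254.

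The gene that fell was AKR1C3, an aldo-keto reductase that reduces retinaldehyde among other substrates. The gene lies on chromosome 10 from 5035354 to 5107686. It had 604, 931 and 640 CPM in sgControl and 291, 263 and 251 CPM in sgRFX6. AKR1C3 fell by 1.44 on the log2 scale with a standard error of 0.21, and edgeR gave an adjusted p-value of 0.00784. AKR1C3 and ADH1C belong to families of similar genes among which reads may have been divided, which leaves both levels uncertain. AKR1B10, which also reduces retinaldehyde, had means of 3446 ± 257 and 3177 ± 132 CPM (SD, n = 3 each) in sgControl and sgRFX6 and a log2 fold change of -0.12 (standard error 0.18). SDR16C5, a retinol dehydrogenase gene, did not pass, at a log2 fold change of 0.99 and an adjusted p-value of 0.0569 in edgeR. Of 14 alternatives, 3 called it higher. These were DESeq2 (adjusted p = 0.00334), limma-voom with sample quality weights (adjusted p = 0.00101) and edgeR with the GC correction (adjusted p = 0.00966). The highest adjusted p-value was 0.243, in edgeR without sgControl library 3.

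The other steps of the pathway had no gene that passed the test. ALDH1A1, which makes retinoic acid from retinaldehyde, had means of 3020 ± 403 and 2849 ± 740 CPM (SD, n = 3 each) in sgControl and sgRFX6, and a log2 fold change of -0.08 (standard error 0.24). Its relatives ALDH1A2 and ALDH1A3 were too low to be tested. CYP26B1, which hydroxylates retinoic acid, differed by 0.38 in log2 (standard error 0.43), or by 0.94 without sgControl library 2, and CYP26A1 was counted at most 1 time in any library. Of the nuclear receptors, RXRA had means of 239 ± 16.3 and 244 ± 44.9 CPM (SD, n = 3 each) and a log2 fold change of 0.03 (standard error 0.18). RARA, RARG and RXRB had log2 fold changes of 0.06, -0.03 and -0.10. RARB had 19.3, 24.7 and 18.6 CPM in sgControl and 11.9, 9.61 and 17.4 CPM in sgRFX6, without overlap, and did not pass at a log2 fold change of -0.68 (edgeR adjusted p = 0.265). The values of the uptake receptor SCARB1 (log2 fold change 0.35), the ester-forming enzyme DGAT1 (-0.45), the fatty acid and retinoic acid binding protein FABP5 (0.67) and the carotene-cleaving enzyme BCO1 (0.51) did not pass either, and edgeR's adjusted p-values were 0.471, 0.438, 0.196 and 0.713. Without sgControl library 2 the log2 fold change of BCO1 was 1.28.

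**Figure D5:**
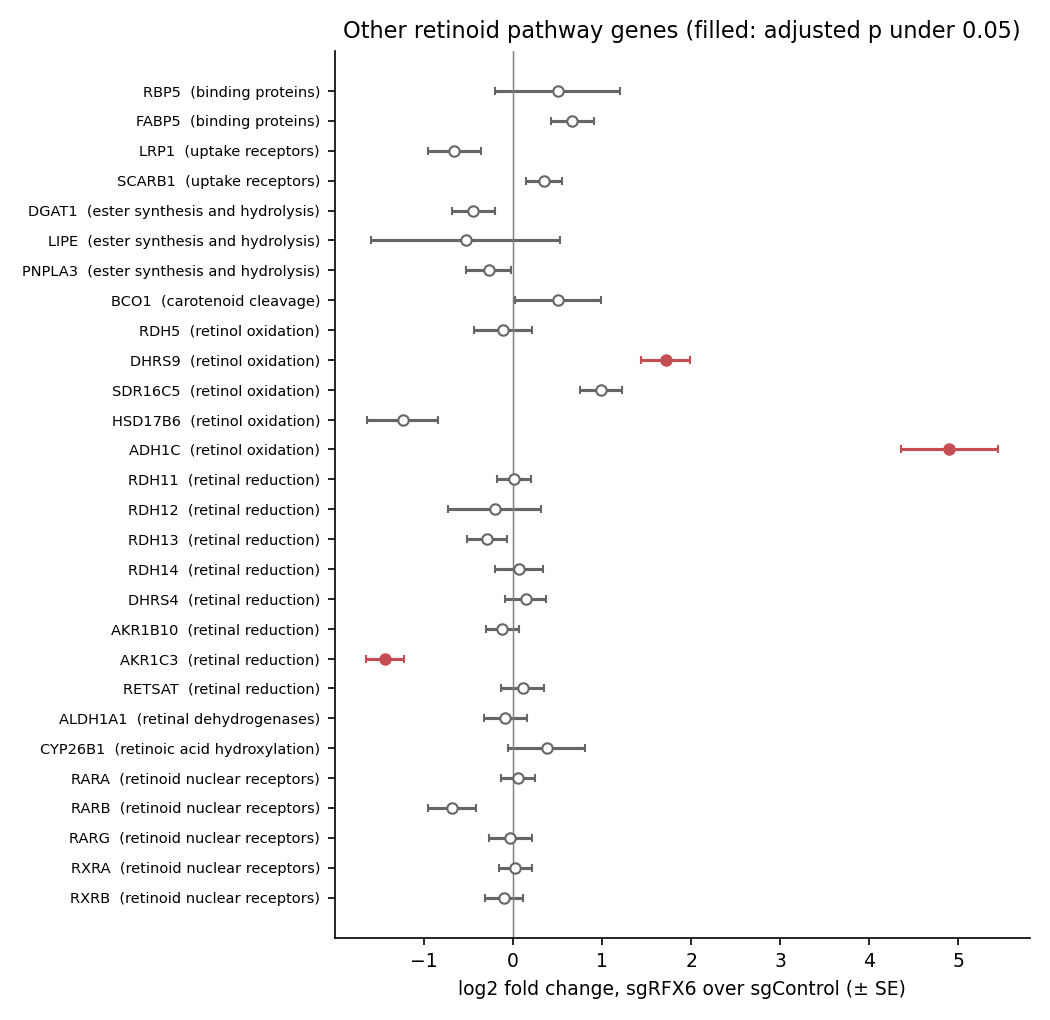
Log2 fold change of sgRFX6 over sgControl (horizontal axis, with bars of 1 standard error) for the 28 tested retinoid pathway genes outside the members, ordered by role. Filled red points mark DHRS9, ADH1C and AKR1C3, the genes called by edgeR at the threshold of 0.05.

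Genes known to respond to retinoic acid were read in the same way. Of 14 such genes, 12 were in the table and 10 were tested. The list holds none of the 8 members, so STRA6 and CRABP2 are not counted in it. RARB and CYP26A1 are also on the list of other retinoid pathway genes. None was called by edgeR's quasi-likelihood test, while 5 had an unadjusted p-value under 0.05, as had 15.6% of all tested genes. DESeq2 called 1 of them and 6.44% of all genes it tested, and limma-voom with sample quality weights called 6 of them and 31.1% of all. The differences were positive for 5 of the 10 genes and negative for 5, and their median was -0.03 on the log2 scale. The largest positive one was that of RARRES3, with 0.915, 2.31 and 0.777 CPM in sgControl and 4.72, 5.28 and 3.22 CPM in sgRFX6 (log2 fold change 1.71, edgeR adjusted p = 0.0890). Among the negative values, HIC1 had a log2 fold change of -1.10 (edgeR adjusted p = 0.170) and MEIS2 of -0.76 (edgeR adjusted p = 0.155).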

How the data were processed

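RNA from 6 Hep3B libraries was analysed. Per the labels and methods, total RNA was extracted with Trizol, its cDNA was read on an Illumina sequencer, and the authors deposited raw counts per gene or assembled transcript, and the submitters' processing notes name the builds GRCh38 and hg38. The aligner, counter and annotation are not given in the sources used here. Columns were assigned by name and replicate number. One row of 16721 without a gene name, at most 9.17e-05% of a library, was left out.

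The counts were tested in R 4.3.3 with edgeR 4.0.16 (filterByExpr with a minimum count of 10 and a minimum total of 15, TMM, quasi-likelihood test without covariates, Benjamini-Hochberg adjustment over 12839 genes, threshold 0.05). A standard error is the size of a log2 fold change over the root of its F value. Differences between libraries used log2 of CPM plus 0.5. The genes and lists were chosen with earlier results of these data known. Named genes are the 8 members, RFX6, list genes that were called, the most abundant gene of each role, the 3 genes most like RBP4 and markers; others were named after their values were seen. Positions, and the length and GC content of 1 principal transcript a gene, came from GENCODE release 29 on GRCh38. Promoter windows came from RefSeq on GRCh38.p14.

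The alternatives tried were DESeq2 1.42.0, limma-voom (limma 3.58.1) with sample quality weights, RLE factors, no scaling beyond the total, other filters, the replicate number as a block, and each library left out. A GC correction, with a smooth trend of span 0.3 on log2 CPM with a prior count of 2, was chosen after the data were seen. In simulated counts the edgeR test recovered 96.5% of 200 genes changed by 2 on the log2 scale among 12891, and 3.98% of its calls were false. The changed genes were all well counted, and the simulation held no GC trend and no deviating library. These rates may therefore not hold for the real libraries or for genes with few counts.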

Additional observations from a re-analysis of the deposited data

How the results depend on the processing

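Between sgRFX6 and sgControl, edgeR called 480 of 12839 tested genes (3.74%) and DESeq2 908 of 14108 (6.44%). Limma-voom with sample quality weights called 3998 of 12839 (31.1%), and edgeR with the GC correction 1403 of 12001. With 1 library left out, between 212 and 718 genes were called, where 12987 to 13071 were tested. The counts of the lists are given beside these shares. Of the 6 tested members, 2 were called, 4 by limma-voom with sample quality weights (RBP4, STRA6, TTR and CRABP2), and between 0 and 2 with 1 library left out. Of the 28 other retinoid pathway genes tested, 3 were called, 11 by limma-voom with sample quality weights and 6 with the GC correction. Between 2 and 3 were called with 1 library left out. Of the 10 retinoic acid responsive genes tested, 0 were called by edgeR, 1 by DESeq2, 6 by limma-voom with sample quality weights and 3 with the GC correction. Between 0 and 1 were called with 1 library left out. The cause of these changes was not tested. The replicate number as a block gave 648 called genes of 12839 tested, 2 members, 3 other retinoid pathway genes and 1 retinoic acid responsive gene (RARRES3). The deviations of libraries with the same number had correlations of -0.56, 0.23 and -0.12. GC trends were left in these deviations, so whether the numbers pair the libraries cannot be told from them. A call gained or lost with the block is not read as a change in effect.

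Over 14 alternatives the log2 fold change lay between -1.34 and -1.08 for RBP4, between -3.14 and -1.72 for STRA6, between 0.03 and 1.15 for CRABP2 and between -0.41 and 0.26 for DHRS3. With 1 library left out, the log2 fold change of ALDH1A1 lay between -0.298 and 0.077, turning positive without sgControl library 2 (0.007) or sgRFX6 library 2. That of RXRA lay between -0.10 and 0.165, turning negative without sgRFX6 library 1. TTR and LRAT are limited by depth.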

Other observations

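Levels in sgControl library 2 stood above those of the other sgControl libraries for several retinoid genes outside the members, which were picked out after their values were seen. LIPE, a lipase that also hydrolyses retinyl esters, had 1.2, 30.3 and 1.47 CPM in sgControl and 12.8, 5.47 and 4.63 CPM in sgRFX6, a deviation of library 2 of 4.07 in log2 CPM. BCO1 deviated by 1.39, CYP26B1 by 1.19 and the transglutaminase gene TGM2 by 1.10. The highest sgControl level was that of library 2 for 19 of the 28 tested pathway genes (67.9%) and for 40.9% of all tested genes. A deviation of 1 or more was found for 3 of the 28 genes (10.7%), for 3 of the 10 tested retinoic acid responsive genes (30.0%) and for 4.85% of all tested genes. These shares describe 1 library, whose deviation had a Spearman correlation of 0.42 with GC content, and the part of GC content in them was not tested.

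Among 11437 other genes, all at an average of 1 or more in log2 CPM, those whose log2 CPM over the 6 libraries was most like that of RBP4 were an assembled transcript (Pearson r = 0.993), S100A16 (0.993) and MAX (0.992). S100A16, a calcium-binding protein gene, averaged 197 ± 22.3 and 96.4 ± 21.3 CPM in sgControl and sgRFX6 (SD, n = 3 each), and MAX, the partner of the MYC proteins, 49.9 ± 1.62 and 40.1 ± 2.23 CPM (SD, n = 3 each). The 6 libraries fall in 2 groups, and these correlations are a description.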
